A study of Rattus norvegicus with 150 samples.

Results

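Adipocyte and lipid synthesis genes were followed in the gastrocnemius, the large calf muscle, of rats that carried metal pellets. The set holds 7 genes of the 32545 in the count table, taken by identifier in a fixed order: Adipoq (ENSRNOG00000001821), Cfd (ENSRNOG00000033564), Fabp4 (ENSRNOG00000010805), Pparg (ENSRNOG00000008839), Scd (ENSRNOG00000013552), Fasn (ENSRNOG00000045636) and Lpl (ENSRNOG00000012181). The table itself gives identifiers alone, and the names came with the list.

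The study asked how metals left in muscle change gene expression over time. Male Sprague-Dawley rats, bought at an age of about 30 days and kept for at least 2 weeks before surgery, each received 4 pellets of 1 metal, 2 in each hind limb muscle, every pellet a cylinder 1 mm wide and 2 mm long. Tantalum (Ta) was the surgical control, so all groups shared the surgery and a foreign body, and no group without pellets was analysed here. The other metals were nickel (Ni), cobalt (Co), depleted uranium (DU) and 1 that the labels call P. The design text names lead (Pb) among the sequenced metals. Muscle was taken after 1, 3, 6 or 12 months, and Ni at 12 months was not analysed here. The 150 libraries of total RNA formed 19 groups, 17 of 8 libraries and 2 of 7 (Ta at 1 month and Co at 6 months). Which rat a library came from is not labelled, and the p-values rest on spread among libraries that may be technical in part. The tissue was not checked against muscle or fat cell markers beyond these genes, because the table gives no names.

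Adipocytes store triglyceride and secrete hormones and other proteins. Adiponectin, encoded by Adipoq, and the complement protease adipsin, encoded by Cfd, are classical products of fat cells, and PPARγ, encoded by Pparg, is the nuclear receptor that drives their differentiation. Fabp4 carries fatty acids inside fat cells, endothelium and macrophages, and Lpl, made by muscle as well as fat, releases fatty acids from circulating lipoproteins. Fasn builds palmitate from acetyl and malonyl units, and Scd puts a double bond into saturated fatty acids. Skeletal muscle holds variable amounts of fat between its fibres and around its vessels, so a piece of muscle can carry fat cell RNA. In bulk tissue, fewer cells of a type and less RNA per cell cannot be told apart.

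Promoters are shown for Adipoq and Cfd, whose levels varied together between libraries, and for Scd, which had the largest rise with Co. They are RefSeq promoters of the rat build GRCr8, from 250 bases before to 50 bases after the start site, while the reads were counted on Rnor_6.0. Capitals mark matches to any of 5 motifs searched on both strands: the NF-Y box CCAAT, the Sp1 box GGGCGG, the element TATAAA of the core promoter, the E-box CACGTG and the nuclear receptor core site AGGTCA. Adipoq lies at chr11:91240120-91240419, Cfd at chr7:10465447-10465746 and Scd at chr1:253231682-253231981, all on the minus strand.
Adipoq: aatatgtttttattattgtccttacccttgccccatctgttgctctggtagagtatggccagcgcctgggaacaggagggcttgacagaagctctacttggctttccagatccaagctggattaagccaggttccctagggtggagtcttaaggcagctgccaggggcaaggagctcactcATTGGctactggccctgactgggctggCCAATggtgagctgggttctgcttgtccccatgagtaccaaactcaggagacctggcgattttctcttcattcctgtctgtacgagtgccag
Cfd: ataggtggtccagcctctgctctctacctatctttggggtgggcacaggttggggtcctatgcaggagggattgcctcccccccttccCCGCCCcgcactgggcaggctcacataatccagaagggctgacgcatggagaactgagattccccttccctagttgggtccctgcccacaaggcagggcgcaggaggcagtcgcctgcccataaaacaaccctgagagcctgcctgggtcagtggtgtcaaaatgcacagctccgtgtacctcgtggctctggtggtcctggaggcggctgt
Scd: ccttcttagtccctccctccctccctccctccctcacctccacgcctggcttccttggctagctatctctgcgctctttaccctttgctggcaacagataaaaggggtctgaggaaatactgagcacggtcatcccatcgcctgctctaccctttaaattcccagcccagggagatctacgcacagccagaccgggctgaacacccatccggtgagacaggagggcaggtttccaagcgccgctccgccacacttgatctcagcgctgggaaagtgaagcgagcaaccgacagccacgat
The Adipoq promoter holds 2 CCAAT boxes in opposite orientation, at positions -69 and -42 from the start site. The Cfd promoter holds 1 GGGCGG, read on the opposite strand at -162, and the Scd promoter holds none of the 5 motifs. Of the 33469 promoters in the table, 37.5% hold CCAAT, 33.1% GGGCGG, 14.2% TATAAA, 6.42% CACGTG and 16.2% AGGTCA. Promoters were found for 4 of the 7 genes, Pparg being the fourth. Its first entry holds GGGCGG on the opposite strand at -208, -204 and -152, those at -208 and -204 overlapping each other, and TATAAA on the opposite strand at 28. Its second entry holds CCAAT at -103. No motif was shared by Adipoq and Cfd, and a match is a description of letters and not of binding. A sterol response element and the longer direct repeat of AGGTCA bound by PPAR receptors were searched earlier. They matched none of the 4 genes' promoters, and the core site AGGTCA took their place.

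The libraries held 12674115 to 21921859 counts (median 15778710). DU at 3 months replicate 2 stood apart. Its median correlation with the other libraries of its group was 0.605, the lowest of the 150 libraries. Levels below are CPM, counts scaled to a common library total with TMM factors, and that library had the highest Scd (2064 CPM), Fasn (97.4 CPM) and Pparg (10.4 CPM) and the lowest Fabp4 (1.07 CPM) and Lpl (9.80 CPM) of all 150. Calls and correlations that rest on it are given with and without it. Co at 6 months replicate 1 had the smallest TMM factor (0.459) and the highest Fabp4 level (619 CPM). The next lowest median correlation was 0.815, in Co at 3 months replicate 2. The Co libraries of 3 months had 0.815 to 0.905, against 0.933 to 0.953 in Ta of that time, so they also differed more among themselves.

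Adipoq differed between libraries of the same group more than nearly every other gene. Its level ran from 0 to 83.3 CPM (median 2.44) over the 150 libraries. The count was 0 in DU at 3 months replicate 7, which allows up to 0.186 CPM. Within DU at 1 month it ran from 0.788 to 83.3 CPM, and within Ni at 1 month from 0.475 to 47.8 CPM. The SD within groups, pooled over groups, was 1.72 on the log2 scale, and 0.600% of 14658 genes had a larger one. The median gene had an SD of 0.53.

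Cfd spread less, from 1.41 to 131 CPM (median 7.93), with a pooled SD of 1.22 that 3.06% of genes exceeded. The enzymes of synthesis were also uneven. Scd had a pooled SD of 1.45 (1.28% of genes larger), 1.29 without DU at 3 months replicate 2, and Fasn of 0.98 (10.1% larger). Lpl had 1.05 (7.34% larger) and Fabp4 0.76 (24.7% larger), and without that library the Fabp4 value was 0.55. Pparg, with an SD of 0.53 (49.8% larger), lay at the middle of all genes. With that library included, the share of variance that lay between groups was 37.1% for Scd, 29.6% for Adipoq, 28.5% for Fasn, 23.5% for Cfd, 19.0% for Fabp4, 17.5% for Lpl and 16.6% for Pparg, against a median of 23.9% over all genes.

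**Figure D1:**
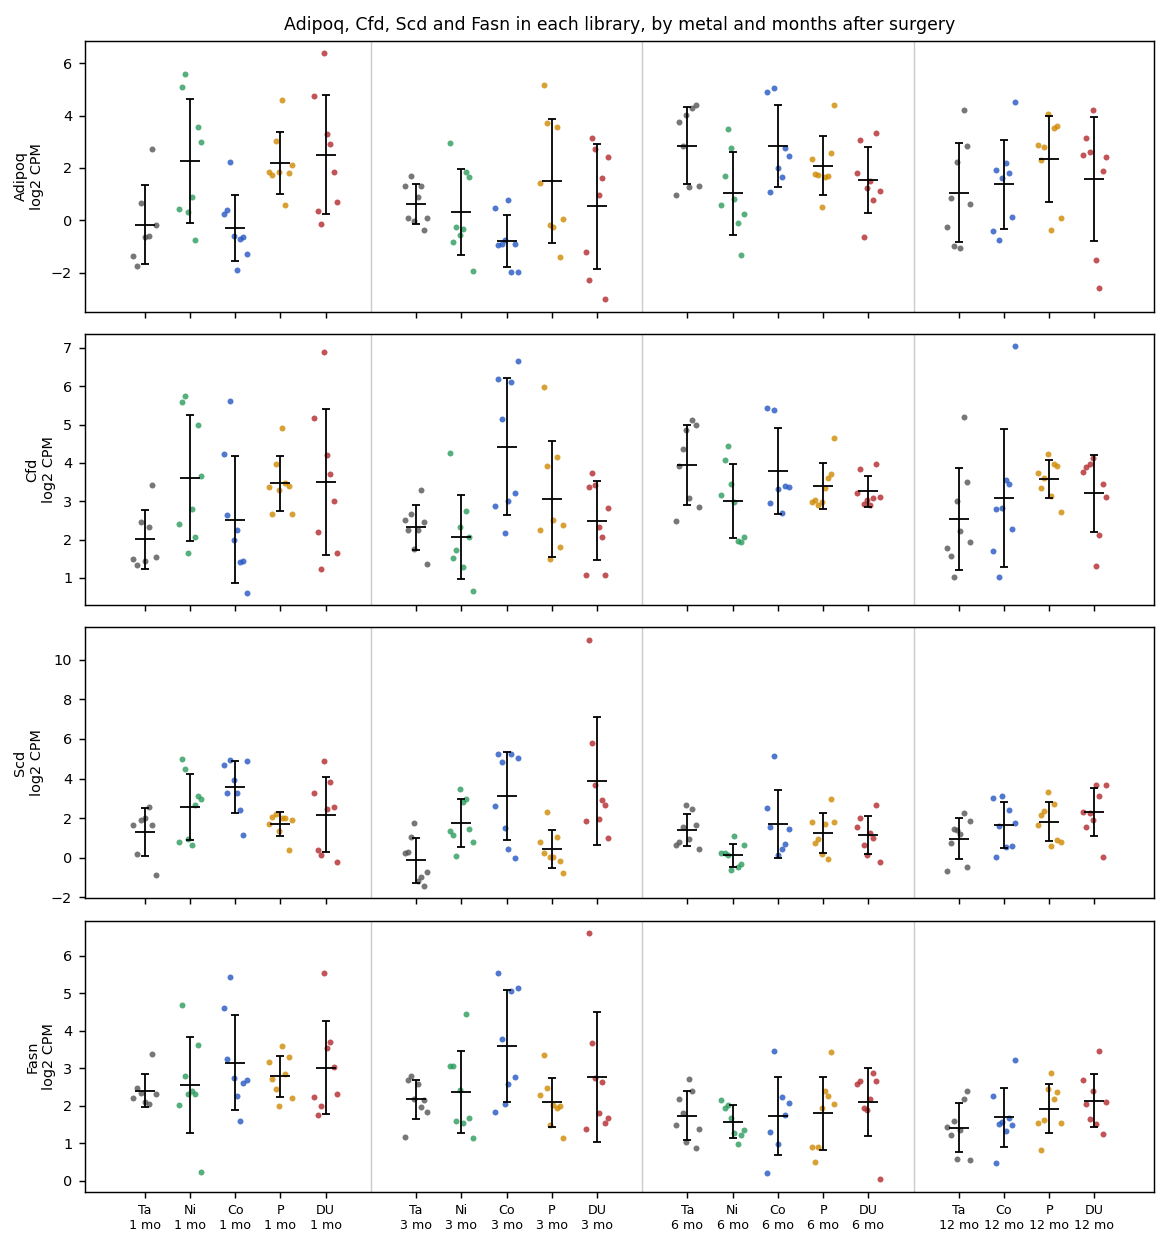
Log2 CPM (prior count 2) of Adipoq, Cfd, Scd and Fasn in each library (points), by metal and months after surgery, with the mean and SD of each group (black). Libraries of 1 group span a wide range, and DU at 3 months replicate 2 is the highest point for Scd and Fasn.

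Adipoq and Cfd varied together from library to library. Pearson's r of log2 CPM was 0.69 over the 150 libraries and 0.76 over deviations from each group's mean, as a description of libraries that share depth and muscle piece. Within single groups r was above 0.5 in 18 of 19, and in these 18 it ran from 0.60 to 0.99 (median 0.91). The exception was Co at 3 months, where r was -0.74 over 8 libraries. Among all genes tested Cfd had rank 9 by likeness to Adipoq. ENSRNOG00000001001 (r = 0.87) and ENSRNOG00000015086 (r = 0.85), which have no name in the sources used here, came first.

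The other genes had lower correlations with Adipoq. Over all libraries its r was 0.22 with Fabp4, 0.07 with Scd, 0.03 with Fasn, -0.00115 with Pparg and -0.01 with Lpl. Over deviations from group means r was 0.23 with Scd and 0.23 with Fasn, and 0.34 and 0.31 without DU at 3 months replicate 2. Within single groups r was above 0.5 in 8 of 19 for Scd and in 6 of 19 for Fasn. Scd and Fasn correlated at 0.61, and 0.55 without DU at 3 months replicate 2. Fabp4 and Lpl, of fatty acid transport and uptake, correlated at 0.50 (0.40 without that library), and Cfd with Fasn at 0.45. Fabp4 and Scd had an r of -0.43 that was -0.19 without that library. For Fabp4 and Pparg r was 0.10 over all libraries and 0.46 without DU at 3 months replicate 2. Without that library r also moved from 0.25 to 0.39 for Pparg and Lpl, and from -0.36 to -0.19 for Fabp4 and Fasn. For Scd and Lpl r moved from -0.27 to -0.14, and for Pparg and Scd from 0.12 to -0.03. The genes most like Fasn were ENSRNOG00000019977 (r = 0.81) and ENSRNOG00000005958 (r = 0.79), again unnamed, and Scd had rank 410.

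**Figure D2:**
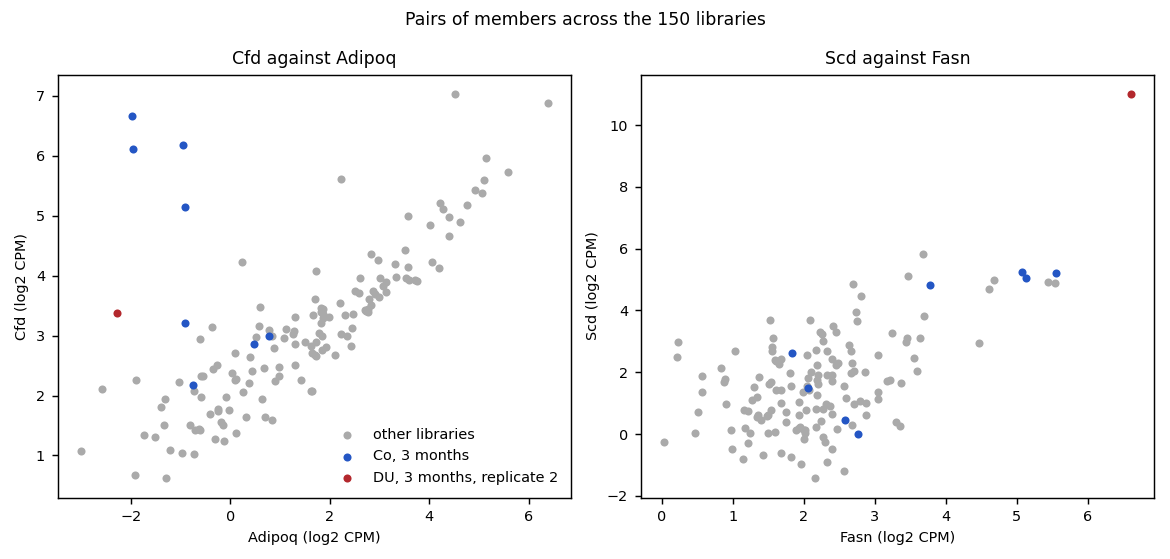
Log2 CPM of Cfd against Adipoq and of Scd against Fasn, 1 point per library, with Co at 3 months in blue and DU at 3 months replicate 2 in red. Most libraries lie along a line for Adipoq and Cfd (r = 0.69 over 150 libraries), and several Co libraries of 3 months have high Cfd at low Adipoq.

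Cfd, Scd and Fasn rose with Co at 3 months, while the Adipoq estimate was negative. Cfd in the 8 Co libraries was 7.17, 72.2, 35.4, 4.38, 7.88, 69.5, 9.18 and 101 CPM (replicates 1 to 8), against 2.47 to 9.76 CPM (median 4.99) in Ta. Scd was 6.03, 37.1, 28.3, 2.70, 1.24, 37.9, 0.872 and 33.1 CPM, against 0.246 to 3.20 CPM (median 0.754) in Ta. Fasn was 3.43, 46.9, 13.5, 4.04, 5.88, 33.6, 6.68 and 35.0 CPM, against 2.13 to 6.81 CPM (median 4.39) in Ta. Replicates 2, 3, 6 and 8 were above every Ta library for all 3 genes, and the other Co libraries lay within the Ta range for Cfd and Fasn, so the groups overlapped. Adipoq in the same Co libraries was 1.27, 0.395, 0.405, 0.472, 1.59, 0.134, 0.407 and 0.128 CPM, against 0.656 to 3.13 CPM (median 1.34) in Ta, so 6 of 8 lay below every Ta library.

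With edgeR's quasi-likelihood test and Benjamini-Hochberg adjustment over all genes, 6.44% of 12429 genes passed an adjusted p of 0.05 in this comparison (6.17% higher with Co), and 3 of the 7 genes did. Scd rose by 4.07 ± 0.83 on the log2 scale (SE, 8 libraries a group, edgeR adjusted p = 0.0127) and was above the Ta median in 8 of 8 libraries. Cfd rose by 2.90 ± 0.62 (edgeR adjusted p = 0.0150, above the Ta median in 7 of 8). Fasn rose by 2.04 ± 0.53 (edgeR adjusted p = 0.0289, 6 of 8). The Adipoq estimate was -1.46 ± 0.49 with an edgeR adjusted p of 0.0841. It passed with DESeq2 (-1.47, adjusted p = 0.0331), and with edgeR without Co replicate 1 (-1.71, adjusted p = 0.0427) or replicate 5 (-1.83, adjusted p = 0.0228). Estimates of Pparg (-0.51), Fabp4 (-0.47) and Lpl (-1.06) did not pass, and that of Lpl was -0.44 without Ta replicate 2.

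Ta at 3 months had the lowest median Scd of the 19 groups. The TMM factors of Co replicates 1 to 8 were 0.986, 1.89, 1.34, 1.05, 1.03, 1.69, 1.15 and 1.72, against 0.798 to 1.28 in Ta, and their part in the result was not tested. Without the factors the median over all genes moved from -0.03 to 0.38, and Scd (4.67), Cfd (3.58) and Fasn (2.69) lay above that median and passed. All 3 calls were lost with voom quality weights (limma adjusted p 0.0930 to 0.115) and with the Adipoq level as a covariate, which lowered the estimates to 2.39 for Scd, 1.36 for Cfd and 0.74 for Fasn (edgeR adjusted p = 1.00). Adipoq itself differed between these groups, so the covariate stands in part for the metal. Over all genes 801 calls became 3 with voom weights and 2 with the covariate. The Fasn call was also lost without Co replicate 2, 6 or 8, or without Ta replicate 1, 6, 7 or 8 (adjusted p 0.0547 to 0.0789).

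**Figure D3:**
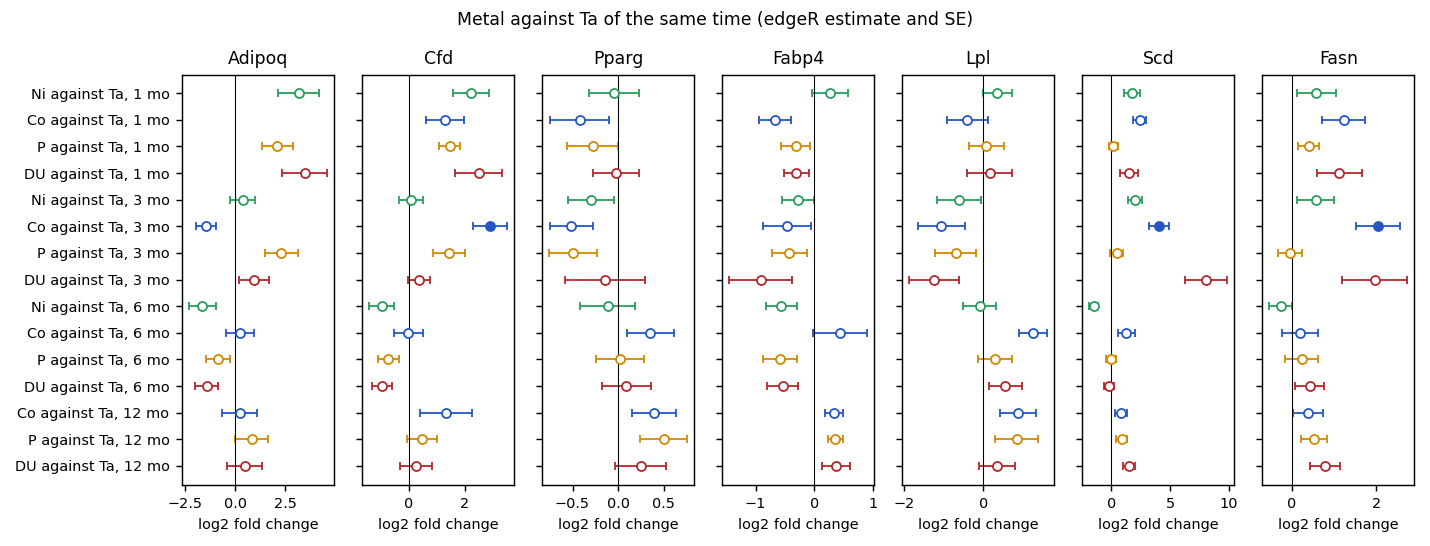
Log2 fold change of each gene, metal against Ta at the same time, with its SE (edgeR). Filled points passed an adjusted p of 0.05, open points did not, the axes differ between panels, and the 3 filled points are Cfd, Scd and Fasn with Co at 3 months.

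In the other 14 comparisons of a metal with Ta, edgeR fits of the 2 groups called 0 of 97 tests of these genes (Adipoq was under the count filter for Co at 1 month), while 25 had p under 0.05 before adjustment. Over all genes such a p was found for 328 of 12034 (Ni at 6 months) to 3223 of 12158 (DU at 3 months). These are the lowest and highest counts. The share over the 14 comparisons together is not given here, so the 25 are not read as a trait of these genes. Of the 97 tests DESeq2 called 3 and limma voom with quality weights 7. Over all genes DESeq2 called 1239 of 12158 with DU at 3 months and 522 of 12512 with Co at 1 month. With P at 1 month it called 32 of 12444, and each of the 3 comparisons held 1 of its calls here. Voom called 4664 of 12158 genes with DU at 3 months (3 of these genes) and 3970 of 12130 with P at 3 months (2). It called 573 of 12036 with Co at 6 months and 719 of 12179 with P at 12 months (1 each). The edgeR model of all libraries called 4, which were Scd with Co at 1 month and Scd, Fasn and Fabp4 with DU at 3 months. That model called 1697 of 14762 genes with Co at 1 month and 3466 with DU at 3 months. The edgeR fits of 2 groups called 2.38% of all genes with P at 12 months (1.93% higher) and 0.338% with P at 3 months (0.0989% higher). They called 0.0083% with Co at 12 months, 0.00826% with DU at 12 months and 0% in the other 10. In none of the 15 comparisons did all libraries of a metal lie above or below all libraries of Ta for any of the 7 genes. The share of all genes with such overlap is not given here, so this is not read as a trait of these genes.

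At 1 month the fat cell products had higher medians with Ni, P and DU than with Ta, and none of these differences passed with edgeR. Adipoq in Ta was 0.175 to 6.53 CPM (median 0.535), and the medians were 4.75 CPM with Ni, 3.51 with P and 5.39 with DU. The estimates were 3.16 ± 1.01 for Ni, 2.10 ± 0.77 for P and 3.47 ± 1.12 for DU. Cfd followed with 2.22 ± 0.63, 1.46 ± 0.39 and 2.50 ± 0.83, and the edgeR adjusted p of these 6 ran from 0.404 to 0.551. DESeq2 called Cfd with P (adjusted p = 0.0331). All 3 comparisons share the 7 Ta libraries. For Cfd with DU the estimate turned to -0.48 once the Adipoq level was a covariate.

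Scd stood apart from Ta in further groups, mostly without passing with edgeR. Co at 1 month had 2.11 to 30.4 CPM (median 12.3), and 6 of 8 libraries were above every Ta library (0.412 to 5.81 CPM, median 3.05). The estimate was 2.41 ± 0.58 (edgeR adjusted p = 0.126), and it passed with DESeq2 (adjusted p = 0.000797) and with all libraries in 1 edgeR model (adjusted p = 0.0340). With Ni the estimate was 2.01 ± 0.59 at 3 months (above the Ta median in 8 of 8 libraries) and -1.49 ± 0.37 at 6 months (0 of 8), neither of which passed (edgeR adjusted p = 0.998 and 0.912). DU at 12 months had an estimate of 1.49 ± 0.50 (edgeR adjusted p = 0.226).

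With all libraries, DU at 3 months had a larger edgeR estimate of Scd than Co at 3 months, an order that turned without DU replicate 2. The 8 libraries had 3.44, 2064, 56.0, 12.5, 3.79, 7.30, 6.28 and 1.88 CPM (replicates 1 to 8), and 7 of 8 were above every Ta library. The estimate was 8.07 ± 1.79 (edgeR adjusted p = 0.0680). Without replicate 2 it was 3.51 and passed (edgeR adjusted p = 0.0378). In fits given all 8 libraries it also passed with DESeq2 (3.41) and voom (3.38), both below the Co values of those fits (4.08 and 3.84). DESeq2 ran with its default replacement of outlying counts in groups of this size, and voom weighted libraries by quality. Neither value is therefore read as resting on replicate 2 in full, and both lay near the edgeR estimate without it.

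The Ta groups alone give the levels at each time under the control metal. Each time is a separate group of libraries, and the rats were older at later times. Time after surgery and age therefore cannot be told apart, here or in the time contrasts averaged over metals. At 6 months against 1 month the fat cell products rose. Adipoq was 0.175 to 6.53 CPM at 1 month and 1.86 to 20.8 CPM (median 10.2) at 6 months, a rise of 2.76 ± 0.75 (edgeR adjusted p = 0.0307), with 8 of 8 libraries above the 1 month median. Cfd went from 2.39 to 10.5 CPM (median 2.81) to 5.44 to 34.5 CPM (median 17.6), a rise of 2.05 ± 0.44 (edgeR adjusted p = 0.0131). The ranges overlapped for both. These were 2 of the 7 genes, where 9.84% of all genes passed (4.11% higher). With the Adipoq level as a covariate the Cfd estimate was 0.21 (edgeR adjusted p = 1.00). Adipoq itself differed between these groups, so the covariate stands in part for time. Over all genes 1205 calls became 0 with the covariate. The Adipoq call was lost without any 1 of Ta at 1 month replicates 1, 2, 3, 4 or 8, or of Ta at 6 months replicates 4, 6 or 7 (adjusted p up to 0.0681). It was also lost without TMM factors (0.0610) and with no count filter (0.0720).

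At 12 months against 1 month Fabp4 and Fasn fell in Ta, where 17.7% of all genes passed (9.98% lower). Fabp4 was 81.1 to 272 CPM (median 118) at 1 month and 56.6 to 126 CPM (median 78.4) at 12 months, and the estimate was -0.81 ± 0.22 (edgeR adjusted p = 0.0186). Fasn was 4.01 to 10.2 CPM (median 4.87) and then 1.35 to 5.15 CPM (median 2.50), an estimate of -0.96 ± 0.28 (edgeR adjusted p = 0.0265), which was -0.73 (adjusted p = 0.0560) without Ta at 1 month replicate 6. Neither passed with all libraries in 1 model (edgeR adjusted p = 0.128 for Fabp4 and 0.302 for Fasn), and Fabp4 did not pass with the Adipoq covariate (adjusted p = 0.0511). In both cases 1 of 8 libraries at 12 months was above the 1 month median. At 3 months 0 of the 7 genes passed with edgeR, where 0.00813% of genes did. DESeq2 called 0 of the 7, and voom called Scd among 511 of 12304 genes. With edgeR 1 of the 7 had p under 0.05 before adjustment, as did 788 of 12304 genes over all.

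Averaged over metals, in a model of all 150 libraries, Fasn fell with time. At 6 months the estimate against 1 month was -1.18 ± 0.24 (edgeR adjusted p = 3.12e-05), and the group mean was lower for 5 of 5 metals, with differences from -0.67 to -1.43. At 12 months the estimate was -1.23 ± 0.26 (edgeR adjusted p = 9.11e-05), lower for 4 of 4 metals. Scd also fell at 6 months, with -1.30 ± 0.35 (edgeR adjusted p = 0.00173), lower for 4 of 5 metals, Ta being the exception. Many genes changed with time: 40.3% of 14762 genes passed at 6 months (24.1% lower) and 34.2% at 12 months (18.4% lower), and the counts of 2 and 1 of these 7 genes are read against those shares. At 3 months 11.6% passed, and Adipoq fell by 1.11 ± 0.39 (edgeR adjusted p = 0.0474), a call lost without DU at 3 months replicate 2 (adjusted p = 0.0655). It was also lost with voom weights, with no count filter and without TMM factors, each of which called 0 of the 7 genes. DESeq2 kept it (adjusted p = 0.0272). The group mean of Adipoq was lower at 3 months than at 1 month for 4 of 5 metals, Ta being the exception.

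Averaged over times, Co differed from Ta in 3 of the 7 genes, where 20.6% of all genes passed (15.6% higher). Scd rose by 2.14 ± 0.40 (edgeR adjusted p = 1.05e-05), Cfd by 1.36 ± 0.33 (0.000857) and Fasn by 0.96 ± 0.27 (0.00475). Leaving 3 months out of the contrast kept the Scd call (1.51, edgeR adjusted p = 0.0281) and ended those of Cfd (0.86, 0.169) and Fasn (0.60, 0.263). With voom weights the Cfd estimate was 0.62 and did not pass (limma adjusted p = 0.148), and that of Fasn was 0.62 and passed (0.0298). With the Adipoq level as a covariate 3 genes passed, Cfd among them (1.41, edgeR adjusted p = 3.19e-08), where 2999 of 14762 genes did. DU differed in 2 genes, where 5.57% passed (4.44% higher). Scd rose by 2.70 ± 0.41 (edgeR adjusted p = 9.12e-07), which was 1.59 without DU at 3 months replicate 2 (0.00367) and 0.94 without 3 months (0.401). Fasn rose by 1.06 ± 0.27 (0.00597), which was 0.64 without that library and did not pass (0.159). With voom weights Scd was 1.36 and passed (limma adjusted p = 0.00810), and Fasn was 0.43 and did not (0.125). Ni, with 0.0135% of genes called, and P, with 0.434%, had 0 of the 7 genes called by edgeR, DESeq2 or voom, and 0 and 2 with an unadjusted p under 0.05. Over all 14762 genes 481 and 1820 had such a p with edgeR.

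**Figure D4:**
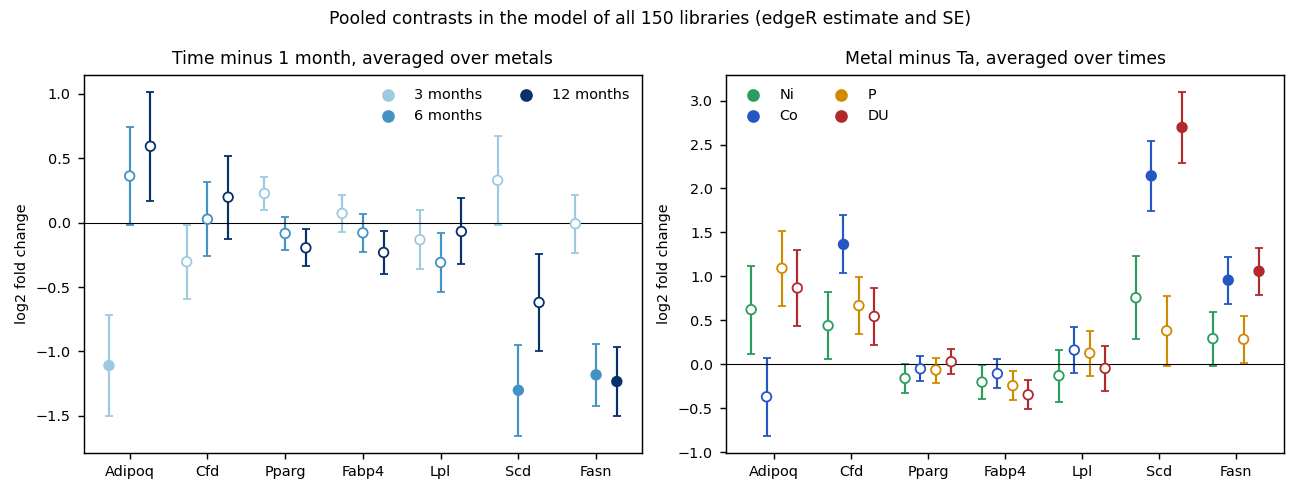
Log2 fold change and SE (edgeR, 150 libraries) of each gene for later times minus 1 month averaged over metals (left) and for each metal minus Ta averaged over times (right), with filled points passing an adjusted p of 0.05. Fasn fell at 6 and 12 months, and Scd was higher with Co and DU.

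The difference between metals and Ta itself varied with time for 4 genes by the edgeR interaction test, which 39.9% of all genes passed. The adjusted p was 5.78e-11 for Scd, 0.000143 for Adipoq, 0.00154 for Cfd and 0.0245 for Fabp4. Without DU at 3 months replicate 2 the Scd value was 0.000512. Fabp4 did not pass once Co at 6 months replicate 1 was left out as well (0.0712). Fasn (0.229), Pparg (0.373) and Lpl (0.0801) did not pass. The voom fit called 6 of the 7 genes, Fasn (limma adjusted p = 0.0224), Pparg (0.00525) and Lpl (0.0191) among them, and not Adipoq (0.131). Over all genes that fit called 8691 of 14762, against 5886 with edgeR, and its count of 6 is read against that. With the Adipoq covariate Lpl passed (edgeR adjusted p = 0.0370) and Fabp4 did not (0.125).

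Of Pparg, Fabp4 and Lpl, edgeR with its main settings called Fabp4 in Ta at 12 months and in the interaction test, and made no call for Pparg or Lpl. Group medians of Pparg lay between 1.58 and 3.23 CPM, with single libraries from 0.414 to 10.4 CPM. The lowest median was that of Ta at 12 months and the highest that of Ta at 3 months. All Co libraries of 3 months lay between 1.94 and 2.70 CPM, below the Ta median of 3.23 CPM in 8 of 8, and the estimate of -0.51 ± 0.24 did not pass (edgeR adjusted p = 0.201).

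Fabp4 had group medians between 78.4 CPM, again in Ta at 12 months, and 152 CPM in Ta at 3 months. At 3 months all metals had negative estimates against Ta: -0.28 for Ni, -0.47 for Co, -0.43 for P and -0.91 for DU, none of which passed in the edgeR fits of 2 groups. For DU the estimate was -0.72 without replicate 2 (edgeR adjusted p = 0.103), and it passed with all libraries in 1 edgeR model (-0.91, adjusted p = 0.0309). The voom fit with quality weights called Fabp4 with P (-0.86) and DU (-1.01), and also Pparg with P (-0.75) and DU (-0.94). Over all genes it called 3970 of 12130 with P and 4664 of 12158 with DU. At 12 months the estimates were positive, 0.33 for Co, 0.36 for P and 0.37 for DU, also without passing in the edgeR fits of 2 groups. At that time voom called Fabp4 with P (0.49, limma adjusted p = 0.0320), where it called 719 of 12179 genes. The comparisons at each time share the Ta libraries.

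Lpl ran from 9.80 to 1429.8 CPM over the libraries, and its group medians from 118 to 411 CPM. The highest median was that of Co at 6 months, whose 7 libraries held 198 to 531 CPM, with 5 of 7 above every Ta library of that time (55.7 to 394 CPM, median 148). The estimate was 1.27 ± 0.35 (edgeR adjusted p = 0.423), and voom with quality weights gave 1.63 and a call (limma adjusted p = 0.00782). Over all genes voom called 573 of 12036 and edgeR 0. Without Co replicate 1 the edgeR estimate was 1.17.

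**Figure D5:**
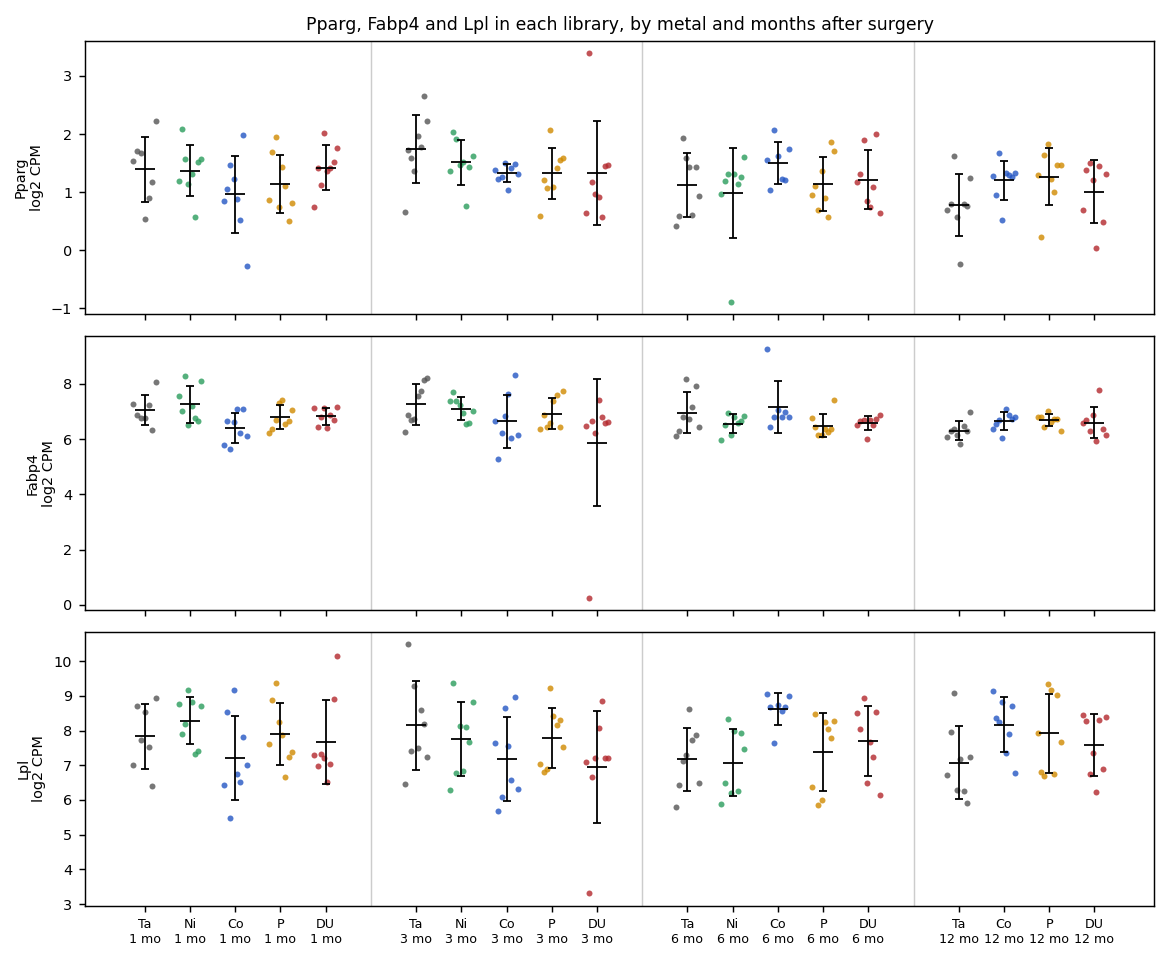
Log2 CPM (prior count 2) of Pparg, Fabp4 and Lpl in each library (points), by metal and months after surgery, with the mean and SD of each group (black). No metal group lies wholly apart from Ta of the same time, and DU at 3 months replicate 2 is the lowest point for Fabp4 and Lpl.

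Ordered by mean log2 CPM, Adipoq was highest in Ta at 6 months and lowest in Co at 3 months, with 3.63 between those means. Cfd was highest in Co at 3 months and lowest in Ta at 1 month (2.42 between means). Scd was highest in DU at 3 months and lowest in Ta at 3 months (3.99), and Fasn highest in Co at 3 months and lowest in Ta at 12 months (2.18). Steps between neighbours in the order were smaller than the SD within the groups for each of the 7 genes, which is what ordering 19 groups over such ranges gives, so single steps in the order are not read.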

How the data were processed

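RNA was sequenced from 150 libraries of gastrocnemius with a stranded total RNA kit, from 1000 ng of RNA and as read pairs of 100 bases, per the labels' protocols. The table deposited by the authors holds raw counts for each gene. Per the submitters' processing notes, HISAT2 2.0.5, featureCounts 1.5.0-p3 and the build Rnor_6.0 were used. Neither the annotation release nor the strand setting is given in the sources used here. Reads of overlapping genes may therefore be shared.

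Columns were assigned to libraries by their descriptions. Each comparison of 2 groups used filterByExpr, TMM factors, robust dispersions and the quasi-likelihood test of edgeR 4.0.16 (R 4.3.3, limma 3.58.1), with Benjamini-Hochberg adjustment over all genes tested and a threshold of 0.05. Pooled contrasts and the interaction came from 1 model with a term for each of the 19 groups. The SE is the log2 fold change over the square root of F. Levels are CPM with 1 set of TMM factors for the 150 libraries. A prior count of 2 was added for log2 CPM. DESeq2 1.42.0, voom weights, RLE factors, no count filter, no TMM factors, a replicate block, the Adipoq level as a covariate and left-out libraries were alternatives. The edgeR fits were tested on simulated data.

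The genes, lists and tests were chosen with earlier results of these data known. All 7 genes are named, with at most 2 genes most like Adipoq and Fasn by Pearson's r. After the main results had been seen, values were chosen for printing at an unadjusted p under 0.01 or an absolute r of at least 0.4, and a shift in r above 0.1 was counted as moved. The wider lists of pathway and cell type genes, muscle markers included, were not tested, because no table used here pairs their names with the identifiers.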

Additional observations from a re-analysis of the deposited data

Results flagged for a closer look

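Single libraries stood far from the rest of their group in 12 of 133 combinations of gene and group, by a gap test on log2 CPM, where chance gives about 6.65. DU at 3 months replicate 2 accounts for 4 of them, with Fabp4 at 1.07 CPM (median of the others 97.5), Lpl at 9.80 CPM (149), Pparg at 10.4 CPM (1.84) and Fasn at 97.4 CPM (3.37). In Co at 6 months, Fabp4 was 619 CPM in replicate 1 (median of the others 111) and Lpl 198 CPM in replicate 3 (418). Cfd was 131 CPM in Co at 12 months replicate 8 (6.89) and 25.2 CPM in P at 6 months replicate 8 (8.12). Fasn was 10.2 CPM in Ta at 1 month replicate 6 (4.67) and 0.900 CPM in DU at 6 months replicate 8 (5.81). Pparg was 0.414 CPM in Ni at 6 months replicate 4 (2.26), and Fabp4 was 63.7 CPM in DU at 6 months replicate 4 (103).

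The difference between metals and Ta varied with time by the edgeR interaction test, which 39.9% of all genes passed. It was called for Scd (adjusted p = 5.78e-11), Adipoq (adjusted p = 0.000143), Cfd (adjusted p = 0.00154) and Fabp4 (adjusted p = 0.0245). The Ta side moved as well, with a mean log2 CPM of Adipoq 3.01 higher at 6 months than at 1 month. Fabp4 did not pass without DU at 3 months replicate 2 and Co at 6 months replicate 1. Adipoq did not pass with voom weights.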

How the results depend on the processing

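In the 15 comparisons of a metal with Ta edgeR made 3 calls among the 7 genes. All libraries in 1 model, DESeq2 and voom weights each made 7. With DU at 3 months these called 3466, 1239 and 4664 genes over all, where the main fit called 0. The fits with the Adipoq covariate (6 genes) made 0 calls among these genes. Leaving out 1 library gave 2 to 4. For Ta over time the 4 calls became 2 with all libraries in 1 model and 1 with the covariate, and 3 to 5 without 1 library. The 9 pooled calls became 5 without the 3 month groups in the Co and DU contrasts and 7 without DU at 3 months replicate 2. The interaction gave 4 calls with all libraries, 4 without that library, 3 without Co at 6 months replicate 1 as well, 3 with the covariate and 6 with voom weights. Over all 14762 genes it gave 5886 calls in the main fit and 8691 with voom weights. Over all genes, the 801 calls with Co at 3 months were 1515 with no count filter, 1475 with DESeq2, 2810 without TMM factors, 3268 with all libraries in 1 model, 3 with voom weights, 2 with the covariate and 1 with the block below. Comparisons a setting did not refit kept their main calls in these counts, and DESeq2 was not run for the interaction. The replicate number as a block gave 0 calls for metals against Ta and 2 for Ta over time, and ended the pooled Adipoq call at 3 months. Scd, Cfd and Fasn with Co at 3 months then had edgeR adjusted p of 0.103, 0.105 and 0.115, and Adipoq and Cfd in Ta at 6 months 0.0618 each. The labels do not say what a number shares. Deviations correlated above 0.1 in 38 of 115 same-numbered pairs (lowest -0.42), and 17 libraries correlated best with their own number. At 3 months the count was 5 of 8 pairs for Co with Ta (lowest 0.07, median 0.12), 6 of 8 for P and 5 of 8 for DU. The median r at 3 months was 0.12 in same-numbered and 0.01 in other pairs for Co. It was 0.26 and -0.06 for P, and 0.13 and -0.03 for DU. Over all comparisons of a metal with Ta the medians of these values were 0.01 and -0.01. In no comparison of a metal with Ta were all pairs above 0.1, so the numbers were not taken to pair the samples, and what they share is not known.

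Of 359 alternatives to single results, 300 kept direction and side of the threshold, 47 lost a call, 11 gained one and 1 reversed, Cfd with DU at 1 month (-0.48 with the Adipoq covariate). The r of Cfd and Fasn was 0.56 over deviations and 0.35 as Spearman's rho. For Fabp4 and Scd rho was -0.14 and r was -0.19 without DU at 3 months replicate 2, for Fabp4 and Lpl r was 0.40 without it, and for Scd and Fasn rho was 0.43. The reasons were not tested. The pooled fits, correlations and spreads without that library, the contrasts without 3 months and the fits for Ta over time without 1 library were chosen after the data had been seen. Depth limits Adipoq most, whose count was 0 in 1 library and under the filter for Co at 1 month.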
